A study of Mus musculus with 6 samples.

Results

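Germinal centres form inside the B cell follicles of the spleen, where activated B cells divide, mutate their antibody genes and are selected with help from T cells. The genes described here are 7 genes of that reaction, taken from a fixed list of symbols: Bcl6, S1pr2, Rgs13, Mef2b, Gcsam, Mybl1 and Il21. Of the 7, 6 had a probe set annotated to their symbol alone, 1 probe set each, among 22180 genes with such a probe set. Mef2b was not measured by this rule, because both probe sets that name it also name Borcs8. The question is how these transcripts compared between DX2 and control spleens.

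The samples were spleens of mice aged 1 year, 3 controls and 3 that overexpressed AIMP2-DX2, a shortened splice form of AIMP2, a scaffold protein of the tRNA synthetase complex. The DX2 mice had the genotype CAG-rtTA; TRE DX2/+, in which the activator rtTA is driven by the broadly active CAG promoter and switches on the TRE DX2 transgene when doxycycline is present. The control littermates had the genotype 0; TRE DX2 /+, with the transgene and no activator. Both groups ate pellets with doxycycline (6.25 mg/kg) from the age of 8 weeks, so the controls share the drug and the transgene but not rtTA. The labels name the samples of a group biological replicates, and each was measured on 1 Affymetrix array.

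Some features of the whole series bear on every value below. Aimp2 is covered by a probe set that also names Eif2ak1, which read 6.03 to 6.34 (log2) in control and 6.23 to 6.51 in DX2 spleens, so it gives no check of the labels. Xist and the Y-linked transcripts marked control 1 and control 2 as female and the 4 other spleens as male. Sex thus went largely with group, control 3 being the only male control. With sex as a covariate, the group difference is the DX2 mean minus control 3 alone. DX2 1 stood apart in its T cell markers, with a mean log2 level of 6.56 over the 11 measured against 7.61 to 7.98 on the other arrays. The whole spleen was measured, so fewer cells of a type cannot be told apart from less RNA per cell. The number of arrays limits the precision.

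BCL6 is the transcriptional repressor without which germinal centres do not form, and it acts both in germinal centre B cells and in T follicular helper cells. The helper cells secrete IL-21, whose receptor signals through STAT3 and raises Bcl6 in B cells. S1PR2 holds B cells in the centre of the follicle, RGS13 limits signalling from chemokine receptors, GCSAM is an adaptor that tunes B cell receptor signalling and motility, and MEF2B and MYBL1 (A-MYB) are transcription factors of germinal centre B cells.

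STAT factors and the BCL6 zinc fingers both recognise sites of the general form TTCNNNGAA. Both sides of that circuit, Il21 and Bcl6, are among the genes measured. Of the members searched upstream, Bcl6 alone held this form, and so its sequence is the one printed here. The RefSeq promoter table (build GRCm38.p6) held 6 of the 7 genes, Mybl1 not among them. Each window below is the 250 bases before a Bcl6 start on the minus strand, 5′ to 3′, with TTCNNNGAA in capitals, a form that reads alike on both strands.
Bcl6, chr16:23988853-23989102: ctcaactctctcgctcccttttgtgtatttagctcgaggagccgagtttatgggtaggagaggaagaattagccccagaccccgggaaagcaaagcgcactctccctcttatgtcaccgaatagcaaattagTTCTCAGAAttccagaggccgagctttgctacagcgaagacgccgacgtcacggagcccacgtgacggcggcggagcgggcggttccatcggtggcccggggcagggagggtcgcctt
Bcl6, chr16:23981284-23981533: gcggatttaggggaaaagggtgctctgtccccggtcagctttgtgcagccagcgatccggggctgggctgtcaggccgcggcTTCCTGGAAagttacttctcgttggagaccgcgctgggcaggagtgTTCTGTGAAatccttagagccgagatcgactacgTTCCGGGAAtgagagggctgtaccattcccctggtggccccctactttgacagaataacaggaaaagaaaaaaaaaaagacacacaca
The first window held 1 match and the second 3. Of 32851 such windows in the table, 7.02% held at least 1 match, and 9 windows held 3 or more. The windows of S1pr2, Rgs13, Mef2b, Gcsam and Il21 held none of these letters. A match describes the letters and is not evidence of binding.

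None of the 6 measured germinal centre genes passed limma's test between DX2 and control spleens. Of all 22180 genes, 0.316% passed an adjusted p of 0.05. At an unadjusted p under 0.05, 1 of the 6 (Rgs13) was lower, where 7.82% of all genes were. In 4 of the 6 (Bcl6, Rgs13, Mybl1 and Il21) the DX2 mean was the lower one, against 48.4% of all genes. The median difference was -0.27 on the log2 scale over the 6 and 0.01 over all genes.

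Bcl6 was close to level between the groups. It read 7.50, 7.41 and 7.36 (log2) in controls 1, 2 and 3 and 7.28, 7.26 and 7.34 in DX2 1, 2 and 3. The DX2 values all lay below the control values, by as little as 0.02 between the nearest arrays. The difference was -0.13 (SE 0.10, adjusted p = 0.594), with a 95% interval from -0.36 to 0.11, so a change of 2-fold lies outside it. Intervals here are those of a single gene and are not adjusted for the number of genes tested. Of all genes, 11.2% were likewise lower without overlap. Bcl6 also had the smallest spread of the 6, with a standard deviation within groups larger than in 2.75% of genes. Its difference was -0.03 when each array was centred on its own median, a setting that moves the median of all genes from 0.01 to 0.10.

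Mybl1 read 5.69, 6.40 and 6.26 in controls and 5.57, 5.88 and 5.64 in DX2 spleens. Control 1 lay among the DX2 values, and the 2 other controls lay above them all. The group levels were 6.12 ± 0.38 and 5.70 ± 0.17 (log2, SD, n = 3 each). The difference was -0.42 (SE 0.20, adjusted p = 0.359), with an interval from -0.88 to 0.04. It was -0.64 without control 1 and -0.28 without control 2.

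For Mef2b there are the shared probe sets alone, and their signal cannot be assigned to Mef2b or to Borcs8. One read 7.94 ± 0.08 in control and 7.68 ± 0.38 in DX2 spleens, and the other 5.40 ± 0.35 and 6.01 ± 0.61 (log2, SD, n = 3 each). The means thus lay in opposite directions on the 2 probe sets, and on both the groups overlapped.

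S1pr2, the confinement receptor, gave nearly equal means. It read 6.68, 6.90 and 6.34 in controls and 6.55, 6.87 and 6.56 in DX2 spleens, and the DX2 values lay wholly within the control range. The difference was 0.02 (SE 0.17, adjusted p = 0.973), with an interval from -0.38 to 0.42. Fitted with sex as a covariate, which sets control 3 alone against the DX2 spleens, the difference was 0.32. The lowest value of the 6 was that of control 3, the male control, without which the difference was -0.13.

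Rgs13 had the largest difference of the 6 and also the widest spread. It read 4.24, 5.45 and 5.58 in controls and 4.56, 3.48 and 3.79 in DX2 spleens. Control 1 was below DX2 1, so the groups overlapped, while controls 2 and 3 lay above every DX2 spleen. The difference was -1.15 (SE 0.40), or 2.22-fold lower in DX2, with an interval from -2.08 to -0.21 and an adjusted p of 0.229. It ranged from -1.57 to -0.90 as single arrays were left out (-1.57 without control 1). With sex as a covariate, so against control 3 alone, it was -1.64. Its within-group standard deviation was larger than in 97.9% of genes, and its level was low.

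Levels near background limit what the Rgs13 values can show. Of 17 transcripts of other tissues, such as those of lens and liver, 16 had mean levels from 3.26 to 5.43 (log2), with a median of 4.34. The liver transcript Alb was left out of that range after its values were seen, since its mean of 6.92 rests on a within-group standard deviation of 2.41. The Y-linked genes read 1.97 to 3.40 on the 2 female arrays. The DX2 level of Rgs13 (3.94 ± 0.55) was below that median and its control level (5.09 ± 0.74, SD, n = 3 each) above it. The means of Bcl6, S1pr2, Gcsam, Mybl1 and Il21 over all arrays lay above that range, and with Alb counted only Bcl6, at 7.36, did. Rgs13 is also made by mast cells, whose 7 markers had a mean level of 4.46 to 4.57 in controls, 5.34 in DX2 1, 4.57 in DX2 2 and 4.73 in DX2 3. Of the 7, 6 were higher in DX2 and 1 lower (median difference 0.40), where 48.4% of all genes were lower, and none passed. Fcer1a, 1 of the 7, read 2.23 to 2.84 on all arrays, below the mean of the 7 on each, so the other markers lay higher on average. The part of mast cells in the Rgs13 values was not tested.

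Gcsam varied mainly among the DX2 spleens. It read 6.14, 6.69 and 6.58 in controls and 7.29, 5.77 and 6.63 in DX2 spleens, so DX2 1 was the highest and DX2 2 the lowest of all 6. The difference was 0.09 (SE 0.36, adjusted p = 0.932), with an interval from -0.74 to 0.92. It was -0.27 without DX2 1 and 0.49 without DX2 2, so its direction rests on single spleens. DX2 1 also had the highest erythroid and proliferation marker levels (9.52 and 9.27), and DX2 2 the lowest of its group (7.42 and 8.63). Their part in the Gcsam values was not tested.

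Il21, the cytokine of the T follicular helper cell, also varied widely within both groups. It read 6.75, 6.18 and 5.67 in controls and 5.06, 6.33 and 5.80 in DX2 spleens, and the groups overlapped broadly. The difference was -0.47 (SE 0.36, adjusted p = 0.586), with an interval from -1.32 to 0.38. It was -0.14 without DX2 1, the spleen with the lowest T cell markers, and 0.06 with sex as a covariate. Without control 1 it was -0.19, without DX2 2 -0.77 and without control 3 -0.74. The male control had the lowest control value. Its within-group standard deviation was larger than in 97.3% of genes, and the interval includes a change of -1, which is 2-fold lower.

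**Figure D1:**
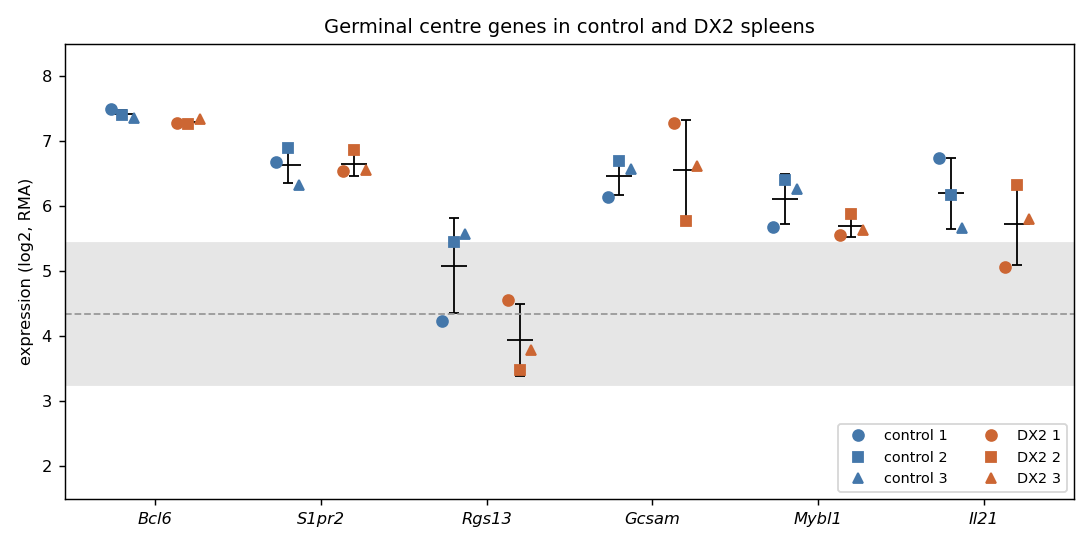
Log2 expression (RMA) of the 6 measured germinal centre genes on each array, controls in blue and DX2 in orange; the bars give the mean and SD of 3 arrays, the grey band the range of mean levels of 16 transcripts of other tissues, Alb left out, and the dashed line their median. Bcl6 lies highest with DX2 just under control, Rgs13 lies lowest, and for the 5 genes other than Bcl6 the groups overlap.

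B cell markers were set beside the germinal centre genes. All 10 measured B cell markers were lower in DX2, 9 of them without overlap where 11.2% of all genes were, with a median difference of -1.21. Of the 10, 3 passed (Cr2, Cd79b and Fcer2a), where 0.28% of all genes did in this direction. The difference of Rgs13 (-1.15) was near that median. Their mean level was 10.35 to 10.68 in controls and 8.81 to 9.41 in DX2 spleens. The intervals of Bcl6, S1pr2, Gcsam and Mybl1 lie wholly above -1.21, while those of Rgs13 and Il21 include it. The list was known to be low in these spleens before it was set beside the germinal centre genes.

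**Figure D2:**
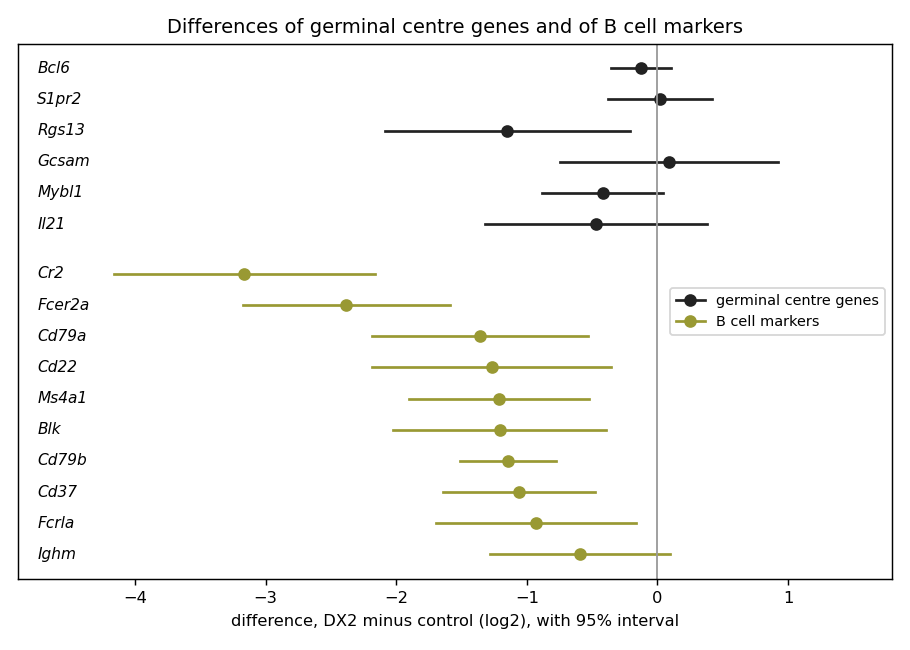
Log2 difference, DX2 minus control, with its 95% interval from limma, for the 6 germinal centre genes (black) and the 10 measured B cell markers (olive). The germinal centre genes other than Rgs13 have intervals that reach 0, and the B cell markers lie between -3.16 for Cr2 and -0.59 for Ighm.

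Each gene was also read relative to the mean of the B cell markers on the same array. On that scale Bcl6 was higher in DX2 by 1.31, S1pr2 by 1.45, Gcsam by 1.52 and Mybl1 by 1.01, each without overlap and each at the smallest p that 3 against 3 arrays allow (exact two-sided permutation p = 0.1, adjusted p = 0.175 over 7 comparisons). On the same scale 98.4% of all genes were higher without overlap, and the median gene by 1.44, so this is not particular to these 4 genes. Rgs13 was the exception among the 5, at 0.28 (exact permutation p = 0.6, adjusted p = 0.84), and its groups overlapped, as they did for 1.61% of all genes. That value was -0.16 without control 1 and -0.17 without DX2 1. Rgs13 also had a level near background and the widest spread of the members, which limits this reading. Relative to the T cell markers, Il21 differed by -0.11 (exact permutation p = 0.8) and Bcl6 by 0.24 (exact permutation p = 0.9), with both groups overlapping. A ratio of this kind shows unequal change and not which side changed.

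Around the members, 14 lists of other genes of the germinal centre and its regulation were described, with 123 measured genes in all. Of these, 3 passed and were lower in DX2 and none was higher, where 0.28% and 0.0361% of all genes did so. The 3 are Ebf1, a B cell identity factor (-1.84, SE 0.24, adjusted p = 0.0422), the follicle-homing receptor Cxcr5 (-1.54, SE 0.22, adjusted p = 0.0456) and Gpr183, the oxysterol receptor that draws B cells to the outer follicle (-1.25, SE 0.14, adjusted p = 0.0387). None of the 123 passed without control 1, control 2, control 3, DX2 1 or DX2 3, nor with sex as a covariate. Without DX2 2, 10 passed, the 3 among them. The median over the 123 was -0.09. Leaving out single arrays turned the sign of the median in 9 of the 14 lists, so a list median near 0 is a description of these 6 arrays.

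Genes of germinal centre B cells moved in both directions. Of 12 measured enzyme and surface genes 6 were lower and 6 higher (median 0.01), and none passed. Klhl6 (-0.70) and Stap1 (-0.98), both linked to B cell receptor signalling, were lower without overlap, and the semaphorin receptor Plxnb2 (0.68) and the translesion polymerase Polh (0.56) were higher without overlap, as 10.7% of all genes were, at adjusted p from 0.108 to 0.229. Of 15 genes of germinal centre B cell transcription 9 were lower (median -0.16, and 0.02 without DX2 1). Ebf1 passed, while Bach2 (-1.12, adjusted p = 0.0733) and Pax5 (-1.18, adjusted p = 0.182) did not. The histone methyltransferase Ezh2, a gene of dividing cells, was higher at 0.67 (adjusted p = 0.102). The 9 measured proliferation markers were all higher, where 48.4% of all genes were lower. Without overlap 7 of the 9 were higher, against 10.7% of all genes, and none passed. Their mean level was 7.44 to 8.38 in controls and 8.63 to 9.27 in DX2 spleens. The part of proliferation in the Ezh2 and Polh values was not tested.

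On the plasma cell side, 3 of the 5 measured genes that BCL6 opposes were lower and 2 higher (median -0.11), and none passed. Prdm1, which encodes BLIMP1, the factor that ends the germinal centre programme, differed by 0.18 (adjusted p = 0.628), Jchain by -0.11 and Sdc1 by -0.15. Irf4 was lower without overlap at -0.68 (adjusted p = 0.168), as 11.2% of all genes were. Of 7 measured corepressors and deacetylases 4 were higher and 3 lower (median 0.01), and the 4 of smallest p, Sin3a (-0.18), Nacc1 (0.30), Hdac4 (0.09) and Hdac5 (0.04), did not pass. Of 7 related zinc finger genes 4 were higher (median 0.08), and the 4 of smallest p were Zbtb7a (0.28), Zbtb1 (-0.21), Zbtb16 (0.57) and Bcl6b (0.21). None of the 7 passed.

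Genes known to be repressed by BCL6 went both ways, 7 higher and 6 lower of 13 (median 0.17). That median was -0.03 without control 3 and 0.01 without DX2 2. Gpr183 passed, and the egress receptor S1pr1 (-1.30, adjusted p = 0.150) and the activation antigen Cd69 (-0.89, adjusted p = 0.0919) were also lower without overlap. Chek1, a replication checkpoint kinase, was higher without overlap (0.76, adjusted p = 0.219). In all, 3 of the 13 were lower without overlap, where 11.2% of all genes were, and 1 was higher, where 10.7% were. Of the 10 target genes found in the promoter table, 0 carried TTCNNNGAA in the 250 bases before their own starts, against 8.13% of all genes.

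The receptors that place B cells in the follicle, with their signalling genes, had the lowest median of the 14 lists, with 9 of 12 lower (median -0.52) and 7 of those without overlap, where 11.2% of all genes were. The median was -0.32 without DX2 1. Besides Gpr183, Cxcr5 and S1pr1, the exchange factor Arhgef1, which relays the S1PR2 signal, was lower at -0.60 (SE 0.16, adjusted p = 0.148). Gna13, the G protein subunit between the receptor and Arhgef1, differed by -0.02 and S1pr2 itself by 0.02. Thus S1pr2 and S1pr1, receptors of the same lipid, had differences of 0.02 and -1.30, a contrast whose own test was not run.

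Relatives of the members in their gene families did not pass either. Among 8 other RGS genes 5 were lower (median -0.04), with Rgs14 at -0.50 (adjusted p = 0.133), Rgs19 at -0.27, Rgs1 at 0.62 and Rgs16 at 0.40, none of them as far from 0 as Rgs13. Mef2c, a MEF2 factor of B cells, was lower without overlap at -1.03 (adjusted p = 0.122), as 11.2% of all genes were. Mef2d was at -0.26 and Mef2a at -0.12. Myb and Mybl2, the relatives of Mybl1, had differences of 0.66 and 0.70 (adjusted p = 0.213 and 0.215), opposite in sign to that of Mybl1. Both are genes of dividing and progenitor cells. Myb was above every control in all 3 DX2 spleens (8.87, 7.98 and 8.48), and Mybl2 in DX2 1 (7.75) and DX2 3 (7.80) but not in DX2 2 (7.12).

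The IL-21 receptor and the signalling genes below it had a median difference close to 0. Of 7 measured genes 4 were lower (median -0.04), and none passed. The receptor Il21r was at -0.52 (adjusted p = 0.396) and Stat3 at 0.14. The kinase Jak1 (-0.28) and Stat5a (-0.23) were lower without overlap, as 11.2% of all genes were. The cytokines Il7 (-0.27), Il15 (0.14), Il4 (-0.12) and Il9 (-0.07) had adjusted p of at least 0.479.

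T follicular helper genes were mostly lower, 13 of 16 where 48.4% of all genes were, with a median of -0.27, and 5 were lower without overlap against 11.2% of all genes. After Cxcr5, the smallest p values belonged to the helper ligand Cd40lg, the inhibitory receptor Btla and the adhesion receptor Slamf6. They differed by -0.43 (adjusted p = 0.126), -0.92 (adjusted p = 0.153) and -1.06 (adjusted p = 0.156). B cells also express genes of this list, such as Cxcr5, and their part in these values was not tested. The list's median was -0.07 without DX2 1, -0.50 without DX2 2, -0.15 without control 1 and -0.07 with sex as a covariate. Over the same arrays all 11 T cell markers were lower (median -0.39), and their median was 0.10 without DX2 1. For the stroma of the follicle, 9 of 15 genes were lower (median -0.23, 0.05 without DX2 1 and -0.46 without DX2 2). Vcam1 (0.49) and the TNF receptor Tnfrsf1a (0.53) were higher without overlap, Lta was at -0.61 and Fcgr2b at -0.41, and none passed. Vcam1 is itself 1 of the 9 markers used for red pulp macrophages. Of those 9, 7 were higher and 2 lower, where 48.4% of all genes were lower. Without overlap 6 of the 9 were higher, against 10.7% of all genes. Of the 9, 1 passed and was higher, where 0.0361% of all genes did so, and it was not Vcam1. The part of red pulp macrophages in the Vcam1 value was not tested.

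**Figure D3:**
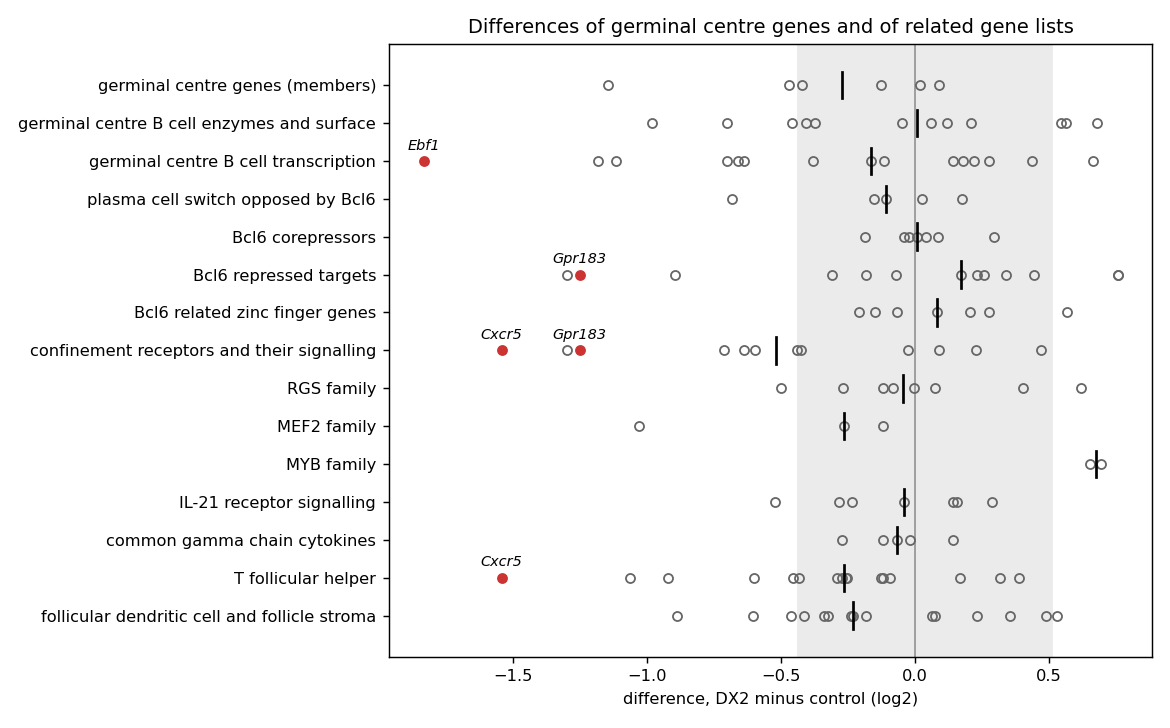
Log2 difference, DX2 minus control, of each measured gene in the germinal centre set and in 14 lists around it; red points passed an adjusted p of 0.05, the black ticks are list medians and the grey band spans the 5th to the 95th percentile of all genes (-0.44 to 0.51). The points past the threshold are Ebf1, Gpr183 and Cxcr5, with the latter pair shown in 2 lists each.

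The members did not share one profile over the arrays. Likeness was measured as the root mean square difference between log2 profiles over 6 arrays, each centred on its own mean, so that a smaller value means a closer match. Between members it ranged from 0.21 (Bcl6 and S1pr2) to 1.05 (Rgs13 and Il21). Among 10554 named genes at or above the median level, those nearest to Bcl6 were Lrrc8d (0.02), Lmnb2 (0.02) and Mir673 (0.03), and nearest to S1pr2 were Hyi (0.05), Acot9 (0.07) and Zfp775 (0.07).

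The closest matches of the more variable members were less tight. Nearest to Rgs13 were Cpm (0.34), Tec (0.35) and Stap1 (0.36), the last a gene of the germinal centre lists. Nearest to Mybl1 were Tfam (0.12), Snord35b (0.12) and Olfr914 (0.12), and nearest to Gcsam were Cep128 (0.11), Btrc (0.14) and Pgm2l1 (0.14). Nearest to Il21 were the integrin Itgb8 (0.15), the ectonucleotidase Nt5e (CD73, 0.15) and Icos (0.15), the costimulatory receptor of helper T cells. Icos read 7.97, 7.34 and 7.02 in controls and 6.33, 7.94 and 7.24 in DX2 spleens, and so was high and low in the same spleens as Il21.

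Some other helper genes ranked the spleens as Il21 did, a feature noticed after the values were seen. Il21 was highest in control 1 and lowest in control 3 among controls, and highest in DX2 2 and lowest in DX2 1 among DX2 spleens. Of 16 other measured helper genes 6 (Icos, Sh2d1a, Slamf6, Cd200, Tox and Tigit) had that order in both groups, which is 37.5% of them, against 4.64% of all genes. In the DX2 spleens alone 10 of 16 shared it, against 24.6% of all other genes, and the T cell marker mean did too (6.56, 7.98 and 7.75). In the control spleens 9 of 16 shared it, against 16.6% of all other genes, while the T cell marker mean was 7.89, 7.61 and 7.87. Control 3 is also the male control, so sex and the low control value cannot be told apart. An order takes no account of size. Among the 6 genes, the standard deviation of controls was 0.03 for Slamf6 and 0.04 for Cd200. For Icos, Sh2d1a, Tox and Tigit it was 0.22 to 0.84.

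**Figure D4:**
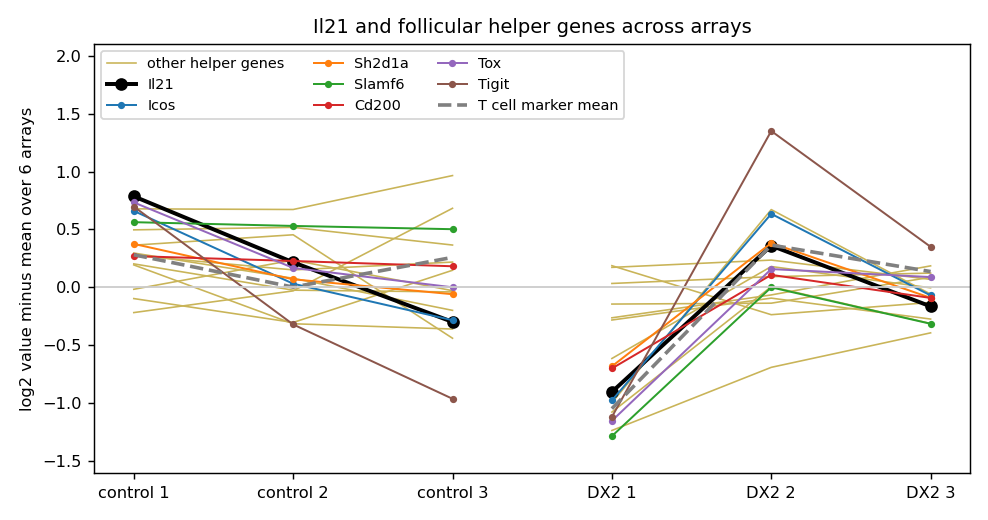
Log2 value minus the mean over 6 arrays for Il21 (black), for the 6 helper genes with the same order of arrays in both groups (coloured), for the other helper genes (thin olive) and for the mean of 11 T cell markers (dashed grey). Il21 and the coloured genes are highest in control 1 and DX2 2 within their groups and lowest in control 3 and DX2 1; lines join arrays to guide the eye and imply no order of replicates.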

How the data were processed

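Total RNA from 6 spleens was labelled with biotin and hybridised to 1 Affymetrix array each. The authors deposited log2 values for 41345 probe sets (0.771 to 13.3), made with RMA per the submitters' processing notes. Its version and the annotation are not given in the sources used. The log2 scale was inferred from the values, and RMA can understate large differences. Of the probe sets, 23521 had 1 gene symbol, 1814 several and 16010 none. Each of 22180 genes was represented by its probe set with the highest mean.

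The groups were compared with lmFit and eBayes of limma 3.58.1 (R 4.3.3), without covariates or a filter. P-values were adjusted by Benjamini-Hochberg across the 22180 genes, and 0.05 was the threshold. The script was tested on simulated data. Exact permutation tests served single values. The members and lists were chosen with earlier results of these data known. All 7 members are named. Of each list, the genes past the threshold are named and, up to 4, those of smallest p. The likeness search names 3 genes per member. Alternatives were a replicate block, each array left out, filtering, prior, weights, scaling, probe set choices and sex as a covariate. The marker lists for plasma cells, NK cells and neutrophils had median differences of -0.15, -0.18 and 0.56, with no member past the threshold. They were -0.07 for plasma cells and -0.07 for neutrophils without DX2 1, and -0.51 for NK cells without DX2 2.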

Additional observations from a re-analysis of the deposited data

How the results depend on the processing

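No member passed under any of the 17 alternatives that gave a count. The count of all genes past the threshold moved from 70 to 125 without the 40% dimmest genes (which drop Rgs13), 547 with array weights, 394 at an adjusted p of 0.1, 2 with centred arrays, 2 with a sex term and 1 with a replicate block, and from 1 to 370 as single arrays were left out. The other germinal centre genes past it went from 3 to 8 with array weights, to 0 with centred arrays, a sex term or a replicate block, and from 0 to 10 as arrays were left out. Bcl6, Rgs13 and Mybl1 kept their direction in every fit run. As arrays were left out, S1pr2 ranged from -0.13 to 0.15 and Gcsam from -0.27 to 0.49. With array weights S1pr2 was -0.0097, and with a sex term Gcsam was -0.019 and Il21 0.062. Relative to the cell type lists, leaving out arrays gave -0.17 to 0.55 for Rgs13, -0.41 to 0.12 for Il21 and -0.19 to 0.53 for Bcl6 against T cell markers. On that same scale, among male spleens alone, S1pr2 was 1.90, Rgs13 -0.060 and Il21 0.50, which set 1 control against 3 DX2 spleens, too few for any test to pass. The cause of these shifts was not tested. Same-numbered arrays deviated with correlations across genes of -0.32, -0.14 and 0.07, and differently numbered arrays with -0.21 to 0.33. These values show no pairing by number but, with 3 arrays per group, cannot exclude it. No member passed with the replicate block.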
